A study of Mus musculus with 13 samples.

Results

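The epidermal differentiation complex is a cluster of genes on mouse chromosome 3 whose products build the outermost, cornified layers of the skin. Its genes were chosen here by symbol, as those named Sprr, Lce or S100a followed by a number, together with Lor, Ivl, Flg, Flg2, Hrnr, Rptn and Crct1. S100a8 and S100a9 were left out of the rule and are given below as other genes of the locus. The rule took 56 of the 25746 genes in the count table, and 27 of the 56 passed the filter on low counts. The 56 were 12 S100a genes, 16 Sprr genes, 21 Lce genes, the 3 precursors Lor, Ivl and Crct1, and the 4 filaggrin-type genes Flg, Flg2, Hrnr and Rptn. All 56 lay on chromosome 3 of mouse genome build GRCm38, between positions 90511034 and 93564643, a span of 3.05 Mb.

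RNA was sequenced in bulk from interfollicular keratinocytes (cells of the epidermis outside the hair follicles), which had been isolated from mouse skin by fluorescence-activated sorting. The study asked how the interleukin-12 receptor of keratinocytes bears on skin inflammation caused by Aldara, a cream containing 5% imiquimod, which activates a Toll-like receptor. There were 3 libraries of K14Cre/+ Il12rb2fl/fl mice after Aldara, 3 of Il12rb2fl/fl mice after Aldara, 4 of untreated K14Cre/+ Il12rb2fl/fl mice and 3 of untreated Il12rb2fl/fl mice. All 4 groups were C57/BL6 mice with both Il12rb2 alleles floxed, Aldara was applied to the skin for 1 day, and the K14Cre transgene drives recombination in keratinocytes from the keratin 14 promoter. Cream without imiquimod and Cre without floxed alleles were not analysed here. Replicates are numbered in the labels with no word on separate animals, and the p-values thus measure only the spread between these libraries, which may be technical.

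As keratinocytes leave the basal layer they make involucrin (Ivl), small proline-rich proteins (Sprr), loricrin (Lor) and late cornified envelope proteins (Lce), which transglutaminases crosslink under the membrane into the cornified envelope. Filaggrin (Flg) and its relatives combine an S100-type calcium-binding domain with long repeats and are made in the granular layer, where filaggrin binds keratin filaments. S100a proteins are small calcium-binding proteins, many of which are also made in basal cells and in cells outside the epidermis.

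Total counts were 5830034 to 22232478 per library, so that the 3 counts an observed 0 allows stood for 0.135 to 0.594 CPM (the read count scaled to the size of the library). Il12rb2, which encodes a receptor chain of interleukin-12, had 0, 1.07 and 1.64 CPM in K14Cre/+ Il12rb2fl/fl after Aldara, against 1.98, 8.14 and 2.68 CPM in Il12rb2fl/fl after Aldara. It had 22.7, 8.52, 25.6 and 19.0 CPM in untreated K14Cre/+ Il12rb2fl/fl, against 17.1, 78.8 and 52.7 CPM in untreated Il12rb2fl/fl. The genotypes thus overlapped in the untreated libraries, and in neither treatment did Il12rb2 differ between them by edgeR's quasi-likelihood test (log2 difference -2.14, SE 0.83, adjusted p = 0.982 after Aldara and -1.38, SE 0.69, adjusted p = 1.0 untreated). The sources used here do not name the floxed exons, so these whole-gene counts may include exons outside the deleted part. Krt14 and Krt5, the keratins of basal keratinocytes, were abundant in all 13 libraries, with Krt14 between 6421.8 and 32629 CPM. Library K14Cre/+ Il12rb2fl/fl Aldara replicate 1 stood apart, at 159.5 on the first principal component where the other 5 Aldara libraries lay between 38.3 and 63.0. The predicted gene Gm10800 took 5.21% and 10.3% of the counts in untreated K14Cre/+ Il12rb2fl/fl replicates 1 and 2 and 14.2% in untreated Il12rb2fl/fl replicate 2, against at most 2.22% in any other library.

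The complex was present mainly through its S100a genes, which held 91.5% of all counts of the 56 genes, while the Sprr genes held 6.18%, Lor, Ivl and Crct1 together 1.94%, the Lce genes 0.305% and the filaggrin-type genes 0.0639%. Per kilobase of exon, averaged over the 13 libraries, the most abundant members were S100a10 at 476 CPM per kb, S100a6 at 337, S100a11 at 337, S100a16 at 276 and S100a14 at 182. Sprr1a at 117 CPM per kb was the sixth, Sprr1b reached 21.1 and Ivl 20.5. Markers of terminal differentiation were scarce on the same scale: Lor averaged 1.14 CPM per kb, the most abundant Lce gene, Lce6a, 1.57, and Flg 0.0585. No count at all was recorded for Lce1k, Lce3b, Lce3e and Lce3f, and 28 of the 56 genes had fewer than 100 counts summed over all 13 libraries.

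**Figure D1:**
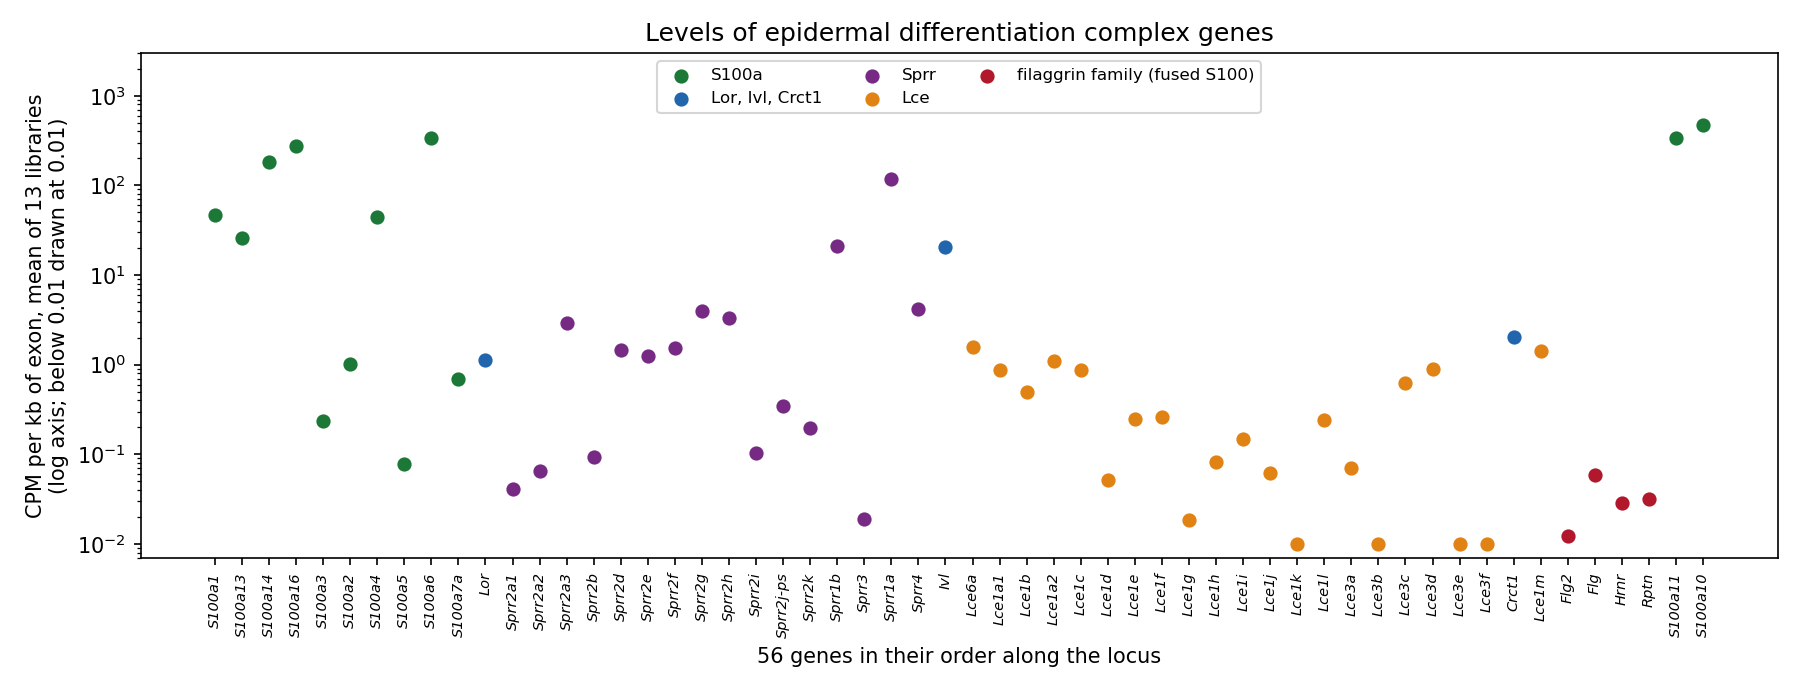
Mean level of each of the 56 genes over the 13 libraries, in CPM per kilobase of exon on a log axis, with the genes in their order along the locus and coloured by family; values below 0.01 are drawn at 0.01. The S100a genes at both ends of the locus reach 476 CPM per kb, Sprr1a reaches 117 and Ivl 20.5, while the Lce genes and the filaggrin-type genes lie at or below 1.57.

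Promoters are printed for 4 genes that carry the results below: S100a1, Ivl and S100a4, which were called after Aldara, and Sprr1a, the most abundant Sprr gene. Each runs 5′ to 3′ on the gene's own strand from 250 bases before to 50 bases after the transcription start, as RefSeq gives it on build GRCm38.p6, and capitals mark matches on either strand to the AP-1 motif TGANTCA and to the TATA box TATAAA. The S100a1 window is chr3:90514281-90514580 on the minus strand, that of Ivl chr3:92573686-92573985 on the minus strand, that of S100a4 chr3:90603520-90603819 on the plus strand and that of Sprr1a chr3:92485832-92486131 on the minus strand.
S100a1: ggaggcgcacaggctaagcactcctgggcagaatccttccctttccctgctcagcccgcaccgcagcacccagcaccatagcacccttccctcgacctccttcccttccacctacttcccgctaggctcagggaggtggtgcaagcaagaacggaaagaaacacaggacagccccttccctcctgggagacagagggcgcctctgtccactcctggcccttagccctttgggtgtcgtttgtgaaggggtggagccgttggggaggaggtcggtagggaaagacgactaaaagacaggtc
Ivl: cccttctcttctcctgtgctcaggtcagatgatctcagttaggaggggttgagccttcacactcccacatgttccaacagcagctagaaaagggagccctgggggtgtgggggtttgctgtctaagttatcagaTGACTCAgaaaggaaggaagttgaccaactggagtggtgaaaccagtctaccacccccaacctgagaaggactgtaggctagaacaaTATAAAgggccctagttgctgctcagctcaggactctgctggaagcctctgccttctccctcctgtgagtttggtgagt
S100a4: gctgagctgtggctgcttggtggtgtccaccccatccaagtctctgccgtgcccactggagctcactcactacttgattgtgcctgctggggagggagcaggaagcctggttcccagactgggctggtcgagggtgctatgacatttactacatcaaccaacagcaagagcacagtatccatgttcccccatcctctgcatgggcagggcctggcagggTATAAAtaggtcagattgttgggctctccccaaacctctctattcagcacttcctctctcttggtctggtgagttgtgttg
Sprr1a: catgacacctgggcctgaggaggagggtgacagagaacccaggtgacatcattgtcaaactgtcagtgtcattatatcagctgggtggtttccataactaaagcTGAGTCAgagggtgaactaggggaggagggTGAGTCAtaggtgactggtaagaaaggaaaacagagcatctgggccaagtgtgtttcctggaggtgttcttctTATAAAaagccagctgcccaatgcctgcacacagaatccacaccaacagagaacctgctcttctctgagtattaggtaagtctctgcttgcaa
Sprr1a had 2 AP-1 matches and a TATA box, Ivl 1 AP-1 match and a TATA box, S100a4 a TATA box alone, and S100a1 no match to either. Over the 49 genes of the complex with a RefSeq promoter, 15 (30.6%) held an AP-1 match, against 7.93% of all 27025 promoters in the table. These were 14 of the 40 genes outside the S100a family and 1 of the 9 S100a genes. Outside the S100a family they were Sprr genes, Lor, Ivl, Flg, Flg2 and Rptn, and the Lce promoters held no AP-1 match. A TATA box stood in 20 of the 49 (40.8%), against 14.2% of all promoters. Matches to KLF (CACCC, 55.1% against 56.7%), the antioxidant response element (TGACNNNGC, 18.4% against 12.5%), STAT (TTCNNNGAA, 8.16% against 8.47%) and the STAT6-type motif (TTC and GAA with 4 bases between them, 8.16% against 6.99%) were also counted on both strands, and STAT and STAT6-type matches can overlap one another. A match describes letters in these windows and is not evidence of binding.

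After Aldara S100a1 and Ivl rose and S100a4 fell in K14Cre/+ Il12rb2fl/fl keratinocytes, and the other 24 tested genes of the complex did not pass the test there. These 3 of 27 (11.1%) compare with 15.5% of all 16051 genes tested by edgeR at an adjusted p under 0.05, so the share of the complex that changed was not above that of all genes. In bulk RNA, fewer cells of a type and less RNA per cell cannot be told apart. In Il12rb2fl/fl keratinocytes none of the 27 was called, where 7.05% of all genes were. At an unadjusted p under 0.05 there were 2 (S100a4 and Sprr2a3), which is 7.41% of the 27 where 21.3% of all genes were. DESeq2 called these same 2, and limma voom none. Averaged over both genotypes with equal weight, 4 of 27 (14.8%) were called, S100a1, Ivl and Sprr2a3 as higher and S100a4 as lower, against 24.9% of all genes. At an unadjusted p under 0.05 there were 8 of 27 (29.6%) in that average, against 35.6% of all genes. In K14Cre/+ Il12rb2fl/fl 3 of 27 had every Aldara library above every untreated one, and 3 had every one below (11.1% each). Of all genes 14.2% and 14.8% did. In Il12rb2fl/fl 2 of 27 lay wholly above and 2 wholly below (7.41% each), against 13.1% and 14.7% of all genes. The median log2 change of the 27 tested genes was -0.51 in K14Cre/+ Il12rb2fl/fl, where that of all genes was -0.09, and 0.27 in Il12rb2fl/fl, where that of all genes was -0.13. Both medians were the same with genes at 0 in a whole group set to the bound that 3 counts give. That was 1 of 27 genes in each comparison, so this could hardly move a median. Both Aldara comparisons use their own untreated libraries, and the difference between them is tested below.

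Markers of basal keratinocytes and of other cells that the sort could hold moved with Aldara as well. Summed over 9 sebocyte genes, the CPM was 4256 to 5464 in K14Cre/+ Il12rb2fl/fl after Aldara and 4652 to 8170 in Il12rb2fl/fl after Aldara, against 409 to 2179 in untreated K14Cre/+ Il12rb2fl/fl and 1012 to 2362 in untreated Il12rb2fl/fl. The sum of 7 basal keratinocyte genes was 12760 to 21150 CPM in K14Cre/+ Il12rb2fl/fl after Aldara, against 39650 to 67480 CPM untreated, and 12660 to 20500 CPM in Il12rb2fl/fl after Aldara, against 25370 to 45150 CPM untreated. For 7 fibroblast genes it was 10.6 to 129.6 CPM in K14Cre/+ Il12rb2fl/fl after Aldara, against 783.5 to 1871 CPM untreated, and 73.6 to 307.7 CPM in Il12rb2fl/fl after Aldara, against 785 to 937.3 CPM untreated. Of these lists, 6 of 9 sebocyte genes rose in each genotype, where 7.81% of all genes rose in K14Cre/+ Il12rb2fl/fl and 4.15% in Il12rb2fl/fl. In K14Cre/+ Il12rb2fl/fl 5 of 7 basal, 6 of 7 suprabasal and 6 of 7 fibroblast genes fell, against 7.69% of all genes. In Il12rb2fl/fl 3 of 7 basal, 4 of 7 suprabasal and 2 of 7 fibroblast genes fell, against 2.9% of all genes. Of 7 follicle infundibulum genes 1 fell in K14Cre/+ Il12rb2fl/fl and 0 in Il12rb2fl/fl, and no listed T cell, melanocyte or Merkel gene was called in either. Of 8 Langerhans cell and macrophage genes 2 rose and 0 fell in K14Cre/+ Il12rb2fl/fl, and 0 were called in Il12rb2fl/fl. The part of these shifts in the changes of the complex was not tested.

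**Figure D2:**
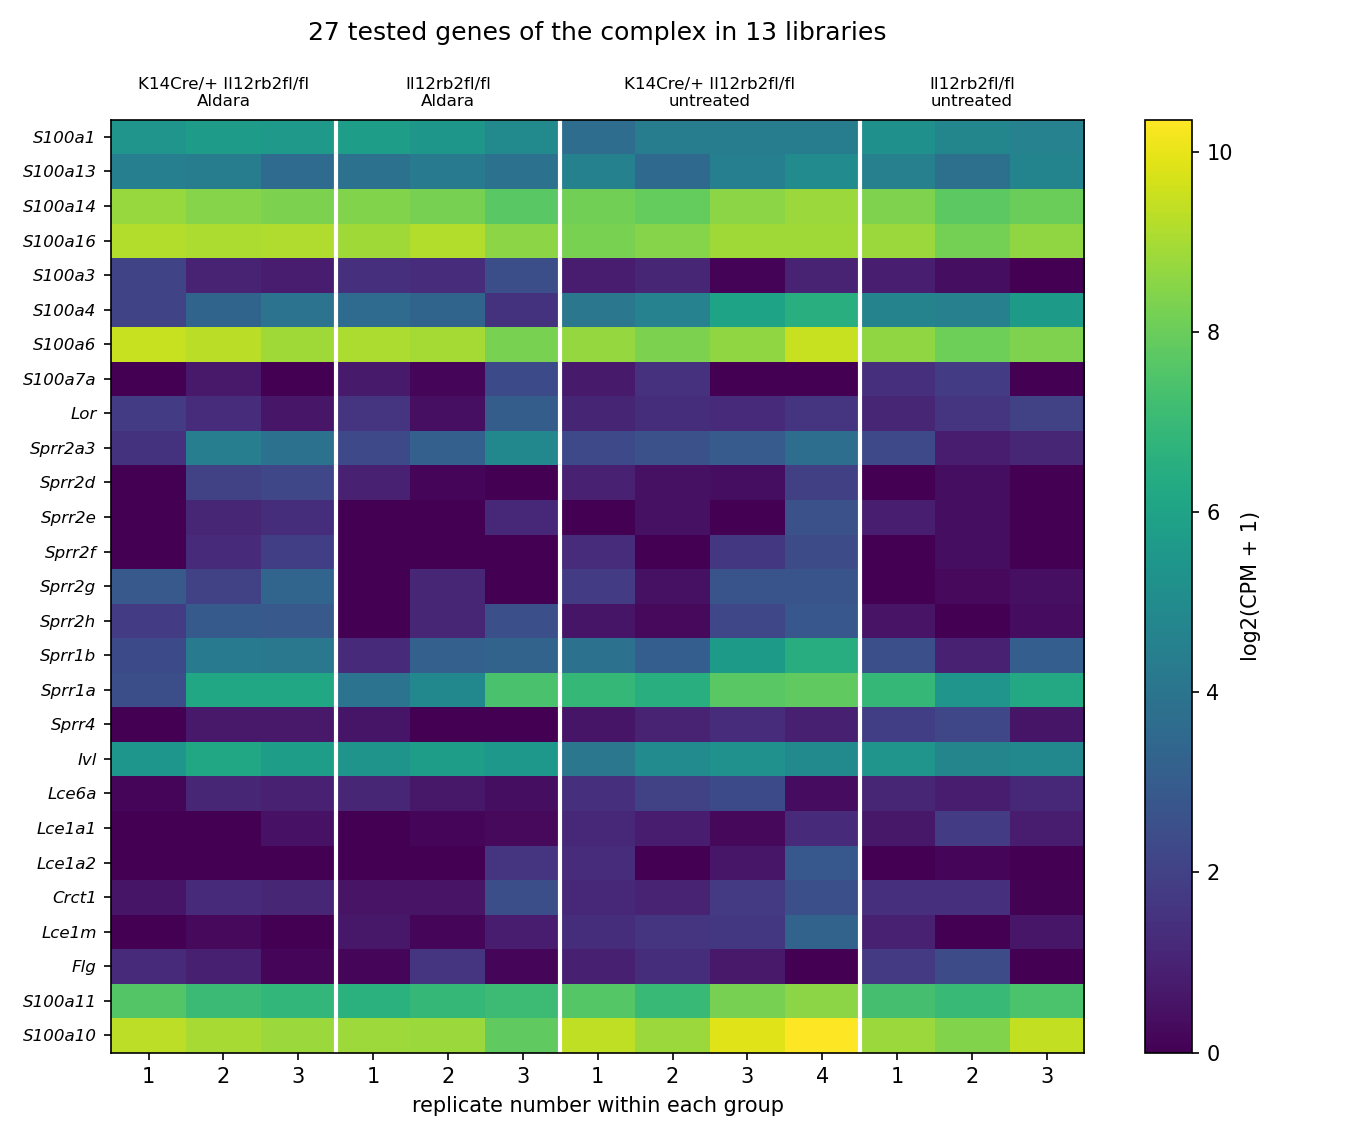
The 27 tested genes of the complex (rows, in locus order) in the 13 libraries (columns, by group and replicate), coloured by log2(CPM + 1). S100a14, S100a16, S100a6 and S100a10 are high in every library, S100a1 is brighter in most Aldara columns, and the Sprr, Lce and Flg rows are mostly dark.

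Of the 10 tested S100a genes, S100a1 rose and S100a4 fell, and the other 8 did not pass the test. S100a1, a calcium sensor best known from heart and skeletal muscle, lies on the minus strand at 90511034 to 90514392. It had 40.8, 50.04 and 47.3 CPM in K14Cre/+ Il12rb2fl/fl after Aldara, against 11.9, 19.8, 19.5 and 19.2 CPM in untreated K14Cre/+ Il12rb2fl/fl. All 3 Aldara libraries lay above all 4 untreated ones, a pattern that 14.2% of all genes showed in this direction. The log2 change was 1.39 (SE 0.28, edgeR adjusted p = 0.00398). In Il12rb2fl/fl the values were 55.1, 43.7 and 30.2 CPM after Aldara, against 35.4, 25.7 and 22.9 CPM untreated. These groups overlapped through untreated replicate 1, and the log2 change of 0.62 (SE 0.30) did not pass (edgeR adjusted p = 0.25). The average over both genotypes was 1.00 (SE 0.20, edgeR adjusted p = 0.00217), and both that call and the one in K14Cre/+ Il12rb2fl/fl were made whichever of the 13 libraries was left out.

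S100a4, a metastasis-associated protein common in fibroblasts and leukocytes, was the only gene of the complex whose 6 Aldara libraries all lay below its 7 untreated ones, which 5.48% of all genes did. In the other direction, 0 of 27 had all 6 Aldara libraries above all 7 untreated ones, against 6.29% of all genes. It had 3.38, 8.99 and 14.6 CPM in K14Cre/+ Il12rb2fl/fl after Aldara, against 16.3, 22.8, 63.8 and 92.8 CPM untreated. Values in Il12rb2fl/fl were 11.2, 9.18 and 1.85 CPM after Aldara, against 24.0, 21.7 and 49.0 CPM untreated. The log2 change was -2.44 (SE 0.71, edgeR adjusted p = 0.0299) in K14Cre/+ Il12rb2fl/fl, -2.11 (SE 0.73, edgeR adjusted p = 0.0971) in Il12rb2fl/fl and -2.27 (SE 0.51, edgeR adjusted p = 0.00417) on average. The call in K14Cre/+ Il12rb2fl/fl was lost without Aldara replicate 1 or 2 or untreated replicate 3 or 4 of that genotype (highest adjusted p = 0.105), while the average was called with any library left out. limma voom did not call it in K14Cre/+ Il12rb2fl/fl (adjusted p = 0.0638). The gene lies at 90603771 to 90606045 on the plus strand, and 41.9% of its 100-base windows also occur in the overlapping read-through gene Gm42674, whose counts were 77.2% to 81.9% of those of S100a4 in the untreated libraries and 70.4% to 176.3% in the Aldara libraries. In K14Cre/+ Il12rb2fl/fl Aldara replicate 1 (112.1%) and Il12rb2fl/fl Aldara replicate 3 (176.3%), where S100a4 was lowest, Gm42674 had more counts than S100a4. Reads of the pair are therefore uncertain in their assignment. Gm42674 itself gave log2 changes of -2.42 (edgeR adjusted p = 0.0159) in K14Cre/+ Il12rb2fl/fl and -1.95 (edgeR adjusted p = 0.0777) in Il12rb2fl/fl. On average its change was -2.19 (edgeR adjusted p = 0.00212), in the same direction as that of S100a4. The fibroblast genes given above moved the same way. Sums of the Langerhans cell and macrophage genes overlapped. They were 548.8 to 1234 CPM in K14Cre/+ Il12rb2fl/fl after Aldara, against 393.8 to 932.9 CPM untreated. In Il12rb2fl/fl they were 560 to 726.7 CPM after Aldara, against 410.4 to 839.9 CPM untreated. The part of either cell type in the fall of S100a4 was not tested.

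None of the 5 most abundant S100a genes was called. S100a10, the annexin A2 partner, had 637, 517 and 440 CPM in K14Cre/+ Il12rb2fl/fl after Aldara, against 657, 441, 911 and 1309 CPM untreated. For Il12rb2fl/fl they were 454, 440 and 226 CPM after Aldara, against 448, 334 and 683 CPM untreated. The groups overlapped in both genotypes, with log2 changes of -0.64 (SE 0.36) in K14Cre/+ Il12rb2fl/fl and -0.39 (SE 0.38) in Il12rb2fl/fl. S100a11, a protein of the cornified envelope, gave -0.77 (SE 0.31) in K14Cre/+ Il12rb2fl/fl and -0.38 (SE 0.33) in Il12rb2fl/fl; 33.98% of its windows also occur in pseudogene copies. S100a6, or calcyclin, gave 0.37 (SE 0.29) in K14Cre/+ Il12rb2fl/fl and 0.44 (SE 0.31) in Il12rb2fl/fl, with means of 601 ± 124 CPM after Aldara against 463 ± 178 CPM untreated (SD, n = 3 and 4) in K14Cre/+ Il12rb2fl/fl. S100a16 was between 547 and 565 CPM in K14Cre/+ Il12rb2fl/fl after Aldara, against 308 to 468 CPM untreated, so these groups did not overlap, but its log2 change of 0.47 (SE 0.22) missed the threshold (edgeR adjusted p = 0.175). Without the 3 untreated libraries with much Gm10800, S100a11 was called in K14Cre/+ Il12rb2fl/fl (log2 change -1.23, edgeR adjusted p = 0.0139), and S100a10 and S100a11 were called on average (-0.84, edgeR adjusted p = 0.0298 and -0.86, edgeR adjusted p = 0.0085).

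**Figure D3:**
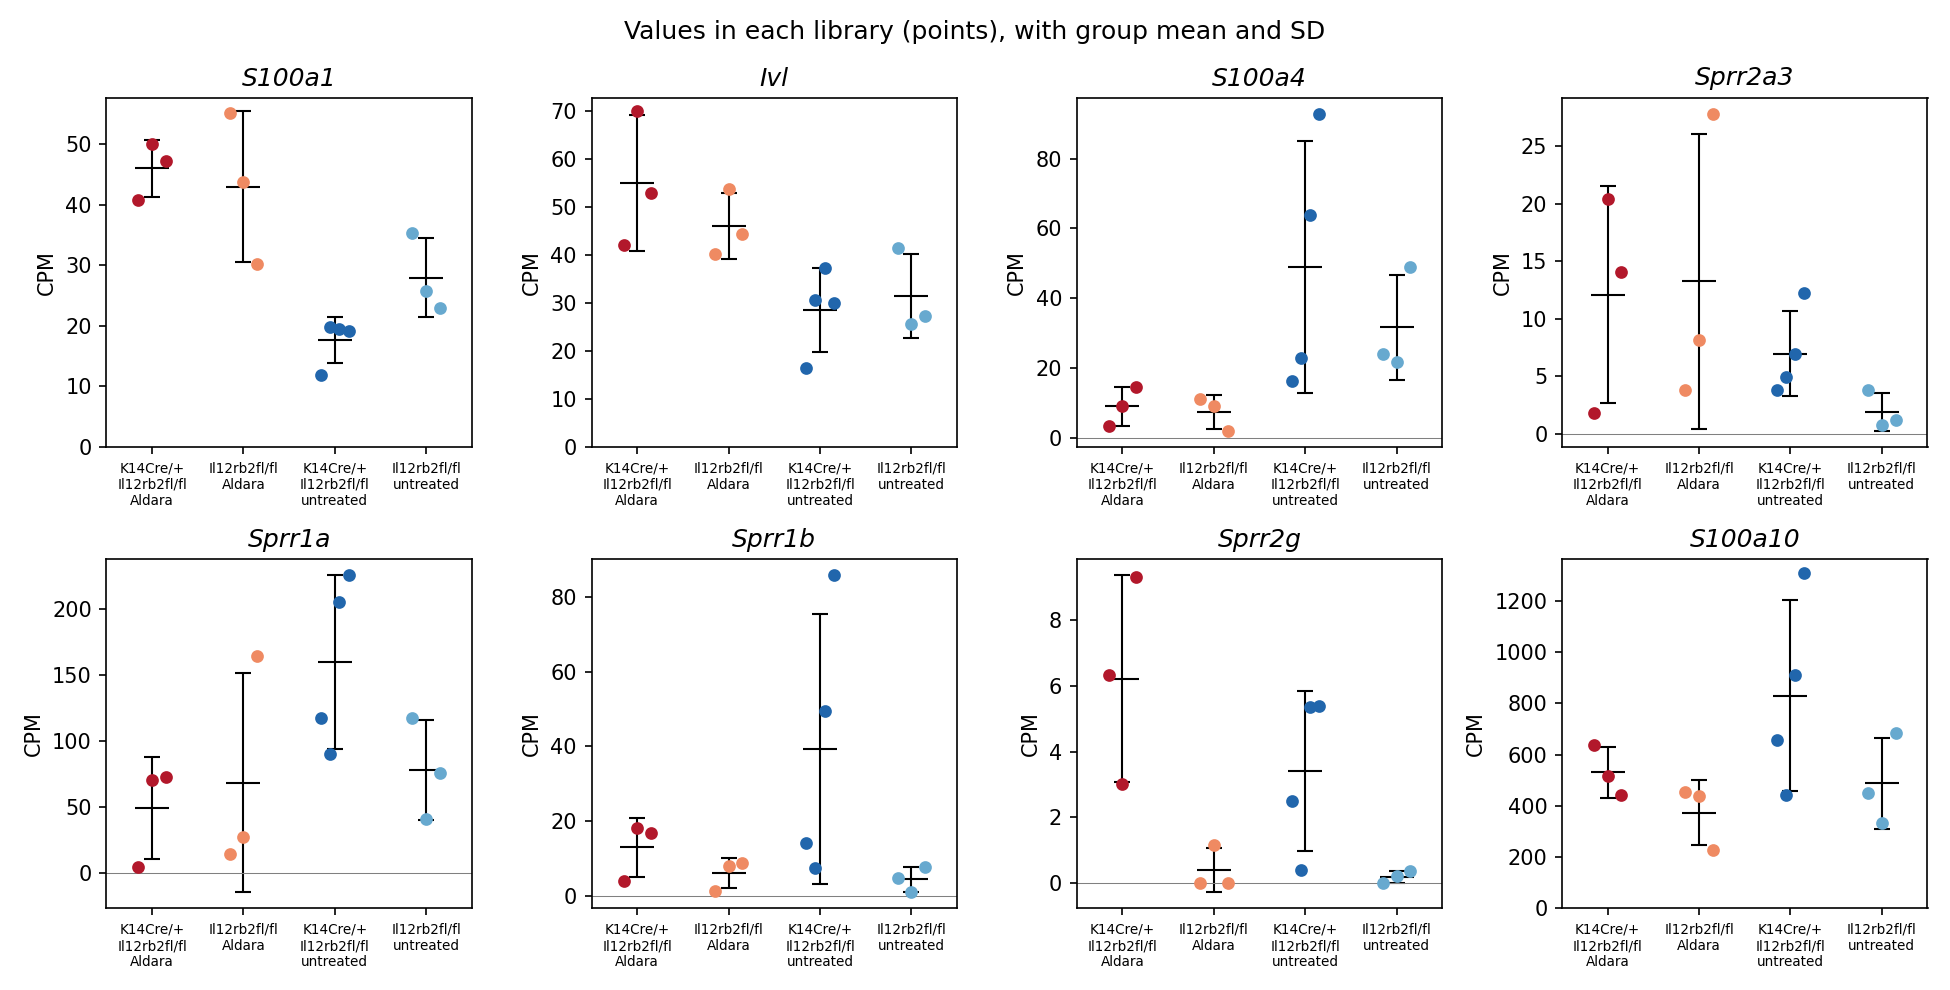
CPM in each library (points) with the group mean and SD (bars) for 8 genes of the complex, the Aldara groups left of the untreated groups and K14Cre/+ Il12rb2fl/fl left of Il12rb2fl/fl. S100a1 and Ivl lie higher on average in the Aldara groups and S100a4 lower, Sprr2g lies higher in both K14Cre/+ Il12rb2fl/fl groups, and Sprr1a, Sprr1b and S100a10 are highest in untreated K14Cre/+ Il12rb2fl/fl replicates 3 and 4.

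Among the envelope precursors, Ivl rose and Lor and Crct1 did not pass the test. Ivl, the scaffold laid down early in envelope assembly, lies on the minus strand at 92570902 to 92573735. It had 42.0, 70.0 and 52.9 CPM in K14Cre/+ Il12rb2fl/fl after Aldara, against 16.5, 30.7, 37.2 and 29.9 CPM untreated. These groups did not overlap, and the log2 change was 0.95 (SE 0.29, edgeR adjusted p = 0.0392). In the Il12rb2fl/fl genotype it had 40.1, 53.7 and 44.3 CPM after Aldara, against 41.4, 25.6 and 27.3 CPM untreated. Untreated replicate 1 lay within the Aldara range there, and the log2 change of 0.55 (SE 0.31) did not pass (edgeR adjusted p = 0.347). The average was 0.75 (SE 0.21, edgeR adjusted p = 0.0185). The call in K14Cre/+ Il12rb2fl/fl held in 5 of 13 fits with 1 library left out (log2 change 0.73 to 1.10, highest adjusted p = 0.19) and was lost without the 3 libraries with much Gm10800 (0.68, edgeR adjusted p = 0.198) and in a fit of the compared groups alone (edgeR adjusted p = 0.0756). It was lost without K14Cre/+ Il12rb2fl/fl Aldara replicate 2 or 3, untreated replicate 1, 2 or 4 of that genotype, Il12rb2fl/fl Aldara replicate 1 or 2, or untreated Il12rb2fl/fl replicate 3. The average lost its call without the same 3 libraries (0.56, edgeR adjusted p = 0.11) and in 4 of the 13 fits (highest adjusted p = 0.0629), those without K14Cre/+ Il12rb2fl/fl Aldara replicate 2, Il12rb2fl/fl Aldara replicate 2 or untreated Il12rb2fl/fl replicate 2 or 3.

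Lor, the main protein of the mature envelope in mouse epidermis, had 2.45, 1.499 and 0.547 CPM in K14Cre/+ Il12rb2fl/fl after Aldara, against 1.11, 1.58, 1.32 and 2.05 CPM untreated. Il12rb2fl/fl keratinocytes had 1.98, 0.349 and 7.30 CPM after Aldara, against 1.18, 1.92 and 3.02 CPM untreated. The groups overlapped in both genotypes, with log2 changes of -0.02 (SE 1.01) in K14Cre/+ Il12rb2fl/fl and 0.66 (SE 1.08) in Il12rb2fl/fl. Crct1, a small cysteine-rich protein encoded beside the Lce genes, ranged from 0.511 to 1.36 CPM in K14Cre/+ Il12rb2fl/fl after Aldara, against 0.99 to 4.74 CPM untreated. In Il12rb2fl/fl its range was 0.447 to 4.57 CPM after Aldara, against 0.0451 to 1.62 CPM untreated. Its log2 changes of -1.21 (SE 1.27) in K14Cre/+ Il12rb2fl/fl and 0.77 (SE 1.33) in Il12rb2fl/fl did not pass.

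The Sprr genes, whose products are short proline-rich crosslinked bridges of the envelope, were uneven in their response, and of 9 tested ones only Sprr2a3 was called, on average over the genotypes. Sprr2a3 lies at 92285417 to 92291405 on the plus strand. It had 1.84, 20.4 and 14.1 CPM in K14Cre/+ Il12rb2fl/fl after Aldara, against 3.86, 4.95, 6.92 and 12.2 CPM untreated. The Il12rb2fl/fl libraries had 3.83, 8.14 and 27.8 CPM after Aldara, against 3.83, 0.746 and 1.17 CPM untreated. Replicate 1 was the lowest of both Aldara groups; it lay below the untreated libraries in K14Cre/+ Il12rb2fl/fl and level with the highest untreated library in Il12rb2fl/fl. The log2 change was 0.79 (SE 0.81) in K14Cre/+ Il12rb2fl/fl, 2.78 (SE 0.93, edgeR adjusted p = 0.0871) in Il12rb2fl/fl and 1.79 (SE 0.61, edgeR adjusted p = 0.0431) on average. The average was called in 5 of 13 fits with 1 library left out (1.21 to 2.27, highest adjusted p = 0.173). It was not called without K14Cre/+ Il12rb2fl/fl Aldara replicate 2 or 3, untreated replicate 1, 2 or 3 of that genotype, Il12rb2fl/fl Aldara replicate 3 or untreated Il12rb2fl/fl replicate 2 or 3. Without the libraries with much Gm10800 it was 1.38 (edgeR adjusted p = 0.22), and limma voom did not call it (adjusted p = 0.129). Of its 100-base windows, 36.2% also occur in Sprr2a1 and Sprr2a2, so reads of these copies may be split or lost.

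Sprr1a and Sprr1b, the members induced by wounding and irritation, varied widely among libraries. Sprr1a, printed above with its pair of AP-1 matches, had 4.603, 70.7 and 72.9 CPM in K14Cre/+ Il12rb2fl/fl after Aldara, against 118, 90.5, 205 and 225 CPM untreated. Values in Il12rb2fl/fl were 14.2, 27.4 and 164 CPM after Aldara, against 117, 41.3 and 75.5 CPM untreated. Within K14Cre/+ Il12rb2fl/fl every Aldara library lay below every untreated one, as did 14.8% of all genes, and the log2 change of -1.69 (SE 0.83) did not pass (edgeR adjusted p = 0.193). The Il12rb2fl/fl groups overlapped, with a log2 change of -0.18 (SE 0.84). Sprr1b had 3.99, 18.1 and 16.9 CPM in K14Cre/+ Il12rb2fl/fl after Aldara, against 14.1, 7.53, 49.4 and 85.8 CPM untreated. For Il12rb2fl/fl they were 1.40, 8.02 and 8.71 CPM after Aldara, against 4.71, 0.96 and 7.62 CPM untreated. Its log2 changes were -1.59 (SE 0.86) in K14Cre/+ Il12rb2fl/fl and 0.42 (SE 0.90) in Il12rb2fl/fl. The highest Sprr1a and Sprr1b values of the untreated libraries, those of K14Cre/+ Il12rb2fl/fl replicates 3 and 4, came from the libraries with the lowest Gm10800 shares, and the part of library make-up in this was not tested. Sprr4 did not pass either, with log2 changes of -1.17 (SE 1.54) in K14Cre/+ Il12rb2fl/fl and -3.65 (SE 1.77) in Il12rb2fl/fl, and it stayed at or below 0.642 CPM in all 6 Aldara libraries.

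The Lce genes, which encode the last envelope proteins to be made, were near the limit of detection, and 17 of the 21 did not enter the test. Summed over all 21, they gave 0.205, 3.78 and 1.78 CPM in K14Cre/+ Il12rb2fl/fl after Aldara, against 7.46, 8.32, 8.63 and 31.5 CPM untreated. In Il12rb2fl/fl the sums were 3.32, 1.98 and 7.01 CPM after Aldara, against 3.76, 4.80 and 3.20 CPM untreated. The K14Cre/+ Il12rb2fl/fl sums did not overlap, while those of Il12rb2fl/fl did, and untreated K14Cre/+ Il12rb2fl/fl replicate 4 held the highest sum of the 13. Of all genes 14.8% lay wholly lower after Aldara in K14Cre/+ Il12rb2fl/fl, and the sums were not tested. Lce1m, one of 4 tested Lce genes, had 0, 3 and 0 counts in K14Cre/+ Il12rb2fl/fl after Aldara, against 18, 10, 28 and 137 counts untreated. With so few counts no fold is given. Its edgeR adjusted p was 0.0507, and it passed with DESeq2's Wald test (adjusted p = 0.00235), limma voom (adjusted p = 0.0309), DESeq2's size factors (edgeR adjusted p = 0.0495), a fit of the compared groups alone (edgeR adjusted p = 0.0405) and a fit without the libraries with much Gm10800 (edgeR adjusted p = 0.0476). It did not pass without the filter on low counts (edgeR adjusted p = 0.0662) and in 11 of 13 fits with 1 library left out (highest adjusted p = 0.145). Lce6a, the most abundant Lce gene, gave log2 changes of -1.56 (SE 1.23) in K14Cre/+ Il12rb2fl/fl and -0.63 (SE 1.26) in Il12rb2fl/fl. Lce1a2 had no count in K14Cre/+ Il12rb2fl/fl after Aldara, against 17, 0, 7 and 98 counts untreated, so that most of its signal came from replicate 4.

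Filaggrin-type genes were scarcer still. Flg, which is mutated in ichthyosis vulgaris in humans, had 1.33, 0.857 and 0.137 CPM in K14Cre/+ Il12rb2fl/fl after Aldara, against 0.857, 1.58, 0.622 and 0 CPM untreated. In the Il12rb2fl/fl genotype it had 0.128, 1.98 and 0.0973 CPM after Aldara, against 2.36, 4.37 and 0 CPM untreated. The groups overlapped, with log2 changes of 0.04 (SE 1.70) in K14Cre/+ Il12rb2fl/fl and -1.63 (SE 1.86) in Il12rb2fl/fl. Flg2, Hrnr and Rptn did not reach the filter, with at most 1.40, 1.74 and 0.60 CPM in any library. Repeats within the gene cover 71.3% of the positions of Flg, 55.5% of Flg2 and 67.3% of Hrnr, and the sources used here do not say how reads with several matches were counted.

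**Figure D4:**
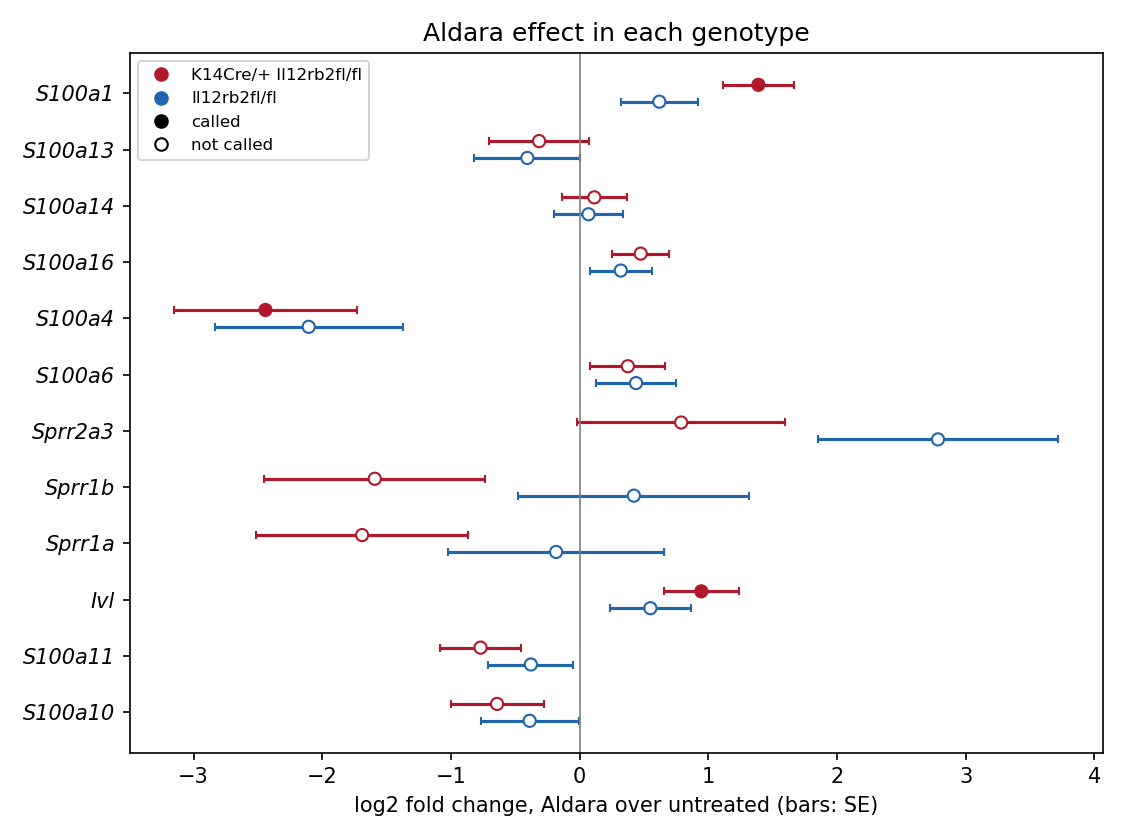
Log2 fold change of Aldara over untreated libraries (points) with its SE (bars) in K14Cre/+ Il12rb2fl/fl (red) and Il12rb2fl/fl (blue), for the 12 tested genes with a mean of at least 5 CPM; filled points are called at an edgeR adjusted p under 0.05. S100a1, Ivl and S100a4 are filled in K14Cre/+ Il12rb2fl/fl, and no point is filled in Il12rb2fl/fl.

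Between genotypes no gene of the complex passed the test in either treatment. Summed over all 16 Sprr genes, K14Cre/+ Il12rb2fl/fl gave 19.3, 126.6 and 128.6 CPM after Aldara, against 21.01, 46.1 and 208.4 CPM in Il12rb2fl/fl after Aldara. Untreated the sums were 142.5, 106.2, 274.8 and 349.4 CPM in K14Cre/+ Il12rb2fl/fl, against 129.9, 50.1 and 85.5 CPM in Il12rb2fl/fl. The genotypes overlapped in both treatments. Only 9 of the 16 entered the test, and some of them, such as Sprr2f and Sprr2g, passed the filter on low counts mainly through K14Cre/+ Il12rb2fl/fl libraries, so their fitted differences do not describe the family. edgeR called 0 genes of the complex and 0.0% of all genes in both comparisons. At an unadjusted p under 0.05 there were 6 of 27 in the untreated comparison (22.2%, against 3.73% of all genes) and 3 of 27 after Aldara (11.1%, against 4.3%). These counts cover the genes that passed the filter, with the same limit. DESeq2 called Sprr1b in the untreated comparison (adjusted p = 0.0458) and none after Aldara, and limma voom called none in either.

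Sprr2g, annotated by GENCODE as a polymorphic pseudogene, was the only gene of the complex that did not overlap between genotypes in both treatments. It had 6.34, 3.00 and 9.30 CPM in K14Cre/+ Il12rb2fl/fl after Aldara, against 0, 1.16 and 0 CPM in Il12rb2fl/fl after Aldara. Untreated it had 2.49, 0.396, 5.37 and 5.38 CPM in K14Cre/+ Il12rb2fl/fl, against 0, 0.213 and 0.361 CPM in Il12rb2fl/fl. Untreated K14Cre/+ Il12rb2fl/fl replicate 2 held 2 counts and lay close to the Il12rb2fl/fl libraries, and 4.37% of all genes after Aldara and 2.77% untreated lay wholly higher in the same way. The share of all genes that did so in both treatments was not counted. Sprr2g passed the filter on low counts mainly through the K14Cre/+ Il12rb2fl/fl libraries, in which it was higher. The log2 difference was 4.10 (SE 1.66, edgeR adjusted p = 0.982) after Aldara and 4.06 (SE 1.62, edgeR adjusted p = 1.0) untreated. The mean of both genotype differences, a comparison added after the values were seen, was 4.08 (SE 1.16, edgeR adjusted p = 0.894), and DESeq2 called it (adjusted p = 0.0289). In that mean edgeR called 0.0% of all genes and none of the 27, 7 of 27 had an unadjusted p under 0.05 (25.9%, against 5.54% of all genes), DESeq2 called Sprr2g alone and limma voom called none. Taking both treatments together, none of the 27 had all K14Cre/+ Il12rb2fl/fl libraries above or below all Il12rb2fl/fl ones, against 0.0249% of all genes above and 0.0748% below.

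Sprr1b in untreated keratinocytes had 14.1, 7.53, 49.4 and 85.8 CPM in K14Cre/+ Il12rb2fl/fl, against 4.71, 0.96 and 7.62 CPM in Il12rb2fl/fl. The groups touched, since K14Cre/+ Il12rb2fl/fl replicate 2 lay just under Il12rb2fl/fl replicate 3, and the log2 difference was 3.12 (SE 0.93, edgeR adjusted p = 1.0). Without the libraries with much Gm10800, which leaves K14Cre/+ Il12rb2fl/fl replicates 3 and 4 against Il12rb2fl/fl replicates 1 and 3, it was 3.49 (edgeR adjusted p = 0.302). After Aldara its log2 difference was 1.11 (SE 0.90). Sprr2f had 0, 19 and 40 counts in K14Cre/+ Il12rb2fl/fl after Aldara, against none in Il12rb2fl/fl after Aldara. S100a1 had lower values in untreated K14Cre/+ Il12rb2fl/fl, where all 4 K14Cre/+ Il12rb2fl/fl libraries lay below the 3 Il12rb2fl/fl ones, as 3.26% of all genes did, with a log2 difference of -0.67 (SE 0.28, edgeR adjusted p = 1.0). After Aldara it was 0.10 (SE 0.30).

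Values of the stress keratins and of Serpinb2 in the untreated libraries are set beside those of the Sprr genes. Krt6a, Krt6b, Krt16 and Krt17 together gave 2859, 2817, 4562 and 5540 CPM in untreated K14Cre/+ Il12rb2fl/fl, against 2462, 1469 and 1279 CPM in untreated Il12rb2fl/fl, with no overlap and no test of the sum. Of all genes 2.77% lay wholly higher in this comparison. After Aldara the sums overlapped, at 2461 to 3748 CPM in K14Cre/+ Il12rb2fl/fl and 1204 to 3776 CPM in Il12rb2fl/fl. Serpinb2, an inhibitor of plasminogen activators, had 3372, 1137, 2944 and 5762 CPM in untreated K14Cre/+ Il12rb2fl/fl, against 300.5, 594 and 1300 CPM in untreated Il12rb2fl/fl (log2 difference 2.18, SE 0.72, edgeR adjusted p = 1.0). The Serpinb2 groups overlapped, since K14Cre/+ Il12rb2fl/fl replicate 2 (1137 CPM) lay under Il12rb2fl/fl replicate 3 (1300 CPM). Serpinb2 is not from the stress list. It was named for the smallest p in this comparison among 26 envelope, keratin and adhesion genes, of which edgeR called 0. The part of the stress keratins and of Serpinb2 in the Sprr values was not tested.

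No gene of the complex was called for a difference in its Aldara effect between the genotypes. edgeR's interaction test called 0 of 27, 0.0% of all genes, and 2 of 27 had an unadjusted p under 0.05 (7.41%, against 3.36% of all genes); DESeq2 and limma voom called none of the 27. Those 2 were Lce1a2 and Lce1m, both with groups near 0 counts. S100a1 came next, with a difference of 0.77 (SE 0.41, edgeR adjusted p = 1.0) between the Aldara effect in K14Cre/+ Il12rb2fl/fl and that in Il12rb2fl/fl. For Sprr1a this difference was -1.51 (SE 1.16) and for Sprr2a3 -1.995 (SE 1.22).

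Outside the rule but inside the locus, S100a8 and S100a9, the subunits of the antimicrobial protein calprotectin, rose in K14Cre/+ Il12rb2fl/fl, and S100a8 also in Il12rb2fl/fl. S100a8 had 140.8, 47.3 and 105.7 CPM in K14Cre/+ Il12rb2fl/fl after Aldara, against 0.60, 0.792, 0.544 and 12.2 CPM untreated. Il12rb2fl/fl keratinocytes had 16.2, 29.2 and 13.9 CPM after Aldara, against 2.58, 0 and 0.541 CPM untreated. The groups did not overlap in either genotype, with log2 changes of 4.72 (SE 1.01, edgeR adjusted p = 0.00594) in K14Cre/+ Il12rb2fl/fl and 4.20 (SE 1.16, edgeR adjusted p = 0.042) in Il12rb2fl/fl. Untreated K14Cre/+ Il12rb2fl/fl replicate 4 held most of the untreated signal of that genotype, and without it the change was 7.28; in Il12rb2fl/fl the call held in 7 of 13 fits with 1 library left out, at up to 5.82 without untreated replicate 1, and was lost without the libraries with much Gm10800 (3.72, edgeR adjusted p = 0.0978). S100a9 gave 3.72 (SE 1.12, edgeR adjusted p = 0.0355) in K14Cre/+ Il12rb2fl/fl, 6.82 without the same replicate 4, and 2.79 (SE 1.25, edgeR adjusted p = 0.21) in Il12rb2fl/fl. Its call in K14Cre/+ Il12rb2fl/fl held in 8 of 13 fits with 1 library left out (highest adjusted p = 0.0909) and was lost without the libraries with much Gm10800 (2.91, edgeR adjusted p = 0.169). Both also mark neutrophils. The other 7 neutrophil genes listed summed to 10.1, 40.6 and 5.20 CPM in K14Cre/+ Il12rb2fl/fl after Aldara, against 4.29, 2.77, 7.62 and 12.7 CPM untreated, and to 0.192, 2.44 and 2.68 CPM in Il12rb2fl/fl after Aldara, against 0.0737, 3.52 and 0.0902 CPM untreated. These sums overlapped between Aldara and untreated libraries in both genotypes, and the part of neutrophils in the S100a8 and S100a9 values was not tested. Pglyrp4, a peptidoglycan recognition protein encoded within the complex, fell by 2.43 (SE 0.77, edgeR adjusted p = 0.0442) in K14Cre/+ Il12rb2fl/fl and by 3.13 (SE 0.83, edgeR adjusted p = 0.0337) in Il12rb2fl/fl on the log2 scale; these calls held in 4 and 8 of 13 fits with 1 library left out. Of the 7 tested genes of the locus outside the rule, 2 rose and 2 fell in K14Cre/+ Il12rb2fl/fl, and 1 rose and 1 fell in Il12rb2fl/fl. Of all genes 7.81% rose and 7.69% fell in K14Cre/+ Il12rb2fl/fl, and 4.15% rose and 2.9% fell in Il12rb2fl/fl. Without the libraries with much Gm10800 these counts were 1 and 1 in K14Cre/+ Il12rb2fl/fl and 0 and 0 in Il12rb2fl/fl.

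Many partners of the envelope encoded elsewhere fell. Of 26 envelope, keratin and cell-cell adhesion genes, 16 fell and none rose in K14Cre/+ Il12rb2fl/fl, and 9 fell and none rose in Il12rb2fl/fl, where 7.69% and 2.9% of all genes fell. The 7 suprabasal genes counted above are all among these 26, so the 2 counts are not separate. The suprabasal keratin Krt77 had 15.0, 54.0 and 34.3 CPM in K14Cre/+ Il12rb2fl/fl after Aldara, against 765, 402, 1160 and 674 CPM untreated. Its log2 change was -4.44 (SE 0.47, edgeR adjusted p = 0.00016) in K14Cre/+ Il12rb2fl/fl and -3.61 (SE 0.46, edgeR adjusted p = 0.00186) in Il12rb2fl/fl. In K14Cre/+ Il12rb2fl/fl Dsg1a, a cadherin of desmosomes, fell by 4.16, Krt10, the keratin of the spinous layer, by 4.10 and the plakin Ppl by 1.99 on the log2 scale (edgeR adjusted p = 0.000412, 0.000729 and 0.000251). In Il12rb2fl/fl Krt10 fell by 4.20, Dsg1a by 3.63 and Ppl by 1.53 (edgeR adjusted p = 0.00292, 0.00296 and 0.00296). All 4 genes were called in both genotypes with any 1 library left out. The number that fell ranged from 11 to 16 in K14Cre/+ Il12rb2fl/fl and from 4 to 11 in Il12rb2fl/fl over those fits, and was 14 and 5 without the libraries with much Gm10800.

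Within a genotype, calls among the enzymes and inhibitors that process the envelope came in K14Cre/+ Il12rb2fl/fl alone, and most were falls. No difference in the Aldara effect between genotypes was called for any of them. Of 20 tested, 1 rose and 4 fell in K14Cre/+ Il12rb2fl/fl (7.81% and 7.69% of all genes), and none was called in Il12rb2fl/fl. The kallikrein protease Klk6 rose, with 3.58, 40.4 and 34.8 CPM in K14Cre/+ Il12rb2fl/fl after Aldara, against 0, 1.98, 0 and 1.28 CPM untreated (log2 change 5.15, SE 1.32, edgeR adjusted p = 0.0159). Without the libraries with much Gm10800 it was 5.26 (edgeR adjusted p = 0.0604), and 0 of the list rose and 3 fell. Spink5, the inhibitor of such proteases, fell by 1.83 (SE 0.48, edgeR adjusted p = 0.0175), the lipoxygenase Aloxe3 by 3.05 (SE 0.82, edgeR adjusted p = 0.0205) and the transglutaminase Tgm3 by 4.26 (SE 1.20, edgeR adjusted p = 0.0258) on the log2 scale. Over fits with 1 library left out, the number that fell in K14Cre/+ Il12rb2fl/fl ranged from 0 to 5, and the calls of Spink5, Aloxe3 and Tgm3 held in 11, 10 and 8 of 13. On average over the genotypes all 4 were called in each of the 13 fits. Tgm1, the membrane-bound transglutaminase that fixes Ivl, is named beyond the rule for its role; it gave log2 changes of 0.11 (SE 1.03) in K14Cre/+ Il12rb2fl/fl and 2.05 (SE 1.15) in Il12rb2fl/fl, neither of which passed.

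Several known regulators of the locus fell. Of 41 tested, 14 fell and 2 rose in K14Cre/+ Il12rb2fl/fl, where 7.69% of all genes fell and 7.81% rose, and 4 fell and 1 rose in Il12rb2fl/fl, where 2.9% of all genes fell and 4.15% rose. Maf, a transcription factor of late differentiation, had 1.33, 4.71 and 4.45 CPM in K14Cre/+ Il12rb2fl/fl after Aldara, against 43.7, 29.7, 39.3 and 33.1 CPM untreated. The Il12rb2fl/fl libraries had 8.05, 5.69 and 17.2 CPM after Aldara, against 40.8, 50.4 and 47.3 CPM untreated. Its log2 change was -3.37 (SE 0.47, edgeR adjusted p = 0.00069) in K14Cre/+ Il12rb2fl/fl and -2.15 (SE 0.45, edgeR adjusted p = 0.0126) in Il12rb2fl/fl. Ovol1 fell by 2.82 and Gata3 by 1.82 on the log2 scale in K14Cre/+ Il12rb2fl/fl (edgeR adjusted p = 0.00158 and 0.00153). In Il12rb2fl/fl Gata3 fell by 1.47 and the AP-1 subunit Fos by 1.92, while Cebpb rose by 2.37 (edgeR adjusted p = 0.0133, 0.0104 and 0.0149). The 3 genes named in K14Cre/+ Il12rb2fl/fl were called with any library left out, and those named in Il12rb2fl/fl in 10 or 11 of the 13 fits. Over those fits the number that fell ranged from 10 to 17 in K14Cre/+ Il12rb2fl/fl and from 0 to 11 in Il12rb2fl/fl, and was 10 and 0 without the libraries with much Gm10800. All 4 lists were chosen with earlier results of these data known.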

How the data were processed

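Bulk RNA-seq libraries (Smart-seq2, single-end reads) were made from 13 samples in 4 groups, per the labels' protocols. The authors deposited raw counts of reads for each Ensembl gene, without normalization. STAR, featureCounts of Subread and genome build GRCm38 are named, per the submitters' processing notes. Tool versions, annotation release, strand setting and the handling of reads with several matches are not given there, so reads of near-identical, overlapping or antisense genes are uncertain in their assignment. Limits derived from counts cover counting error only, since no molecular identifiers are stated.

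Symbols came from the count table, and coordinates and exonic lengths from the GENCODE mouse M21 annotation of GRCm38. The filter filterByExpr with a minimum count of 10 kept 16051 genes. All 13 libraries entered 1 quasi-likelihood model with a coefficient per group and TMM factors (edgeR 4.0.16, R 4.3.3), whose common dispersion was 0.424. Adjusted p-values are Benjamini-Hochberg values over those genes, with 0.05 as the threshold for a call. Each SE is the log2 change over the root of its F statistic, and CPM values carry the TMM factors. The scripts were tested on simulated data. Shared sequence was counted as identical windows of 100 bases in exons of another gene.

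The members, gene lists and tests were chosen with earlier results of these data known. Named by rule were called members with a mean of at least 5 CPM, the 3 of smallest p in genotype and interaction tests, Lor, Ivl, Crct1 and the filaggrin-type genes, the 3 most abundant members per family, S100a8, S100a9 and up to 4 genes per list by smallest p, of which 1 is not reported here. S100a16, S100a14 and Tgm1 stand outside that rule and were chosen after their values were seen. Alternatives were DESeq2 1.42.0, limma 3.58.1 (voom), DESeq2's size factors, no filter, a replicate block, the compared groups alone, each library left out, and the 3 untreated libraries with much Gm10800 left out.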

Additional observations from a re-analysis of the deposited data

Results flagged for a closer look

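Among 18 genes named above that were tested for a library far from the others in untreated K14Cre/+ Il12rb2fl/fl, the only group of 4 libraries, 2 stood out. Lce1m had 8.78 CPM in replicate 4, where the other 3 libraries had 1.54, 1.98 and 2.18 CPM. S100a1 had 11.9 CPM in replicate 1, where the others had 19.8, 19.5 and 19.2 CPM. Chance alone marks about 1 in 20 such groups. The Aldara call of S100a1 in K14Cre/+ Il12rb2fl/fl was also made without replicate 1.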

How the results depend on the processing

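The number of genes of the complex called in K14Cre/+ Il12rb2fl/fl after Aldara was 3, ranged from 1 to 4 with 1 library left out, and was 1 (S100a1) with a replicate block. In Il12rb2fl/fl it was 0, ranged from 0 to 1 with 1 library left out and was 2 with DESeq2. On average over both genotypes it was 4 and ranged from 2 to 5. Between genotypes DESeq2 called 1 gene in the untreated comparison and 1 in the mean of both comparisons, where edgeR called 0. Over all genes, 2489 were called in K14Cre/+ Il12rb2fl/fl after Aldara, against 1466 without the libraries with much Gm10800 and 1650 to 2764 with 1 library left out. In Il12rb2fl/fl there were 1132, against 270 without those libraries, 2041 with DESeq2 and 215 to 1451 with 1 library left out, and on average 3994, against 2622 without those libraries. DESeq2 called 24 genes between genotypes after Aldara, 22 untreated, 18 in their mean and 2 in the interaction, where edgeR called 0. As a set, same-numbered libraries did not deviate together, with a median correlation of -0.0004 over 18 pairs, against -0.0022 over 45 pairs of different number. Of the 18 pairs 6 had a correlation above 0.1, and the range was -0.163 to 0.421. A pair of different number reached 0.369. Single pairs may thus share a deviation, but the numbers were not taken to pair the libraries. No other count of calls moved by over 1.5 times under the replicate block. The block also ended the average call of Sprr2a3 (adjusted p = 0.121) and called S100a6 in its place (adjusted p = 0.0434), and Lce1m in K14Cre/+ Il12rb2fl/fl stayed uncalled (adjusted p = 0.148). Some log2 changes that had not been called turned sign. In K14Cre/+ Il12rb2fl/fl after Aldara that of Flg was -0.91 with the replicate block and -0.58 to 0.64 with 1 library left out, and that of Lor was 0.27 with the block, 0.046 without the filter and -0.57 to 0.37 with 1 library left out. In Il12rb2fl/fl after Aldara, Lce1m gave 0.46 with limma voom and 0.022 with the block, and Sprr1b -0.025 without the libraries with much Gm10800. With 1 library left out there, Crct1 gave -1.22 to 1.23, Lce1a2 -1.98 to 6.20 (4.16 with all libraries), Lce1m -0.57 to 0.78, Lor -0.79 to 1.18, Sprr1a -1.91 to 0.30 and Sprr1b -0.036 to 1.05. For the average, limma voom gave 0.17 for Crct1, 0.079 for Flg and -0.047 for Lor, Flg was 0.29 without the libraries with much Gm10800, and with 1 library left out Crct1 gave -1.22 to 0.082 and Lor -0.41 to 0.58. The difference of Lce1a2 between genotypes after Aldara was -6.16 with all libraries and -6.76 to 0 with 1 left out. None of these values had been called, and the causes were not tested. The median of all genes in the average moved by 0.106 under limma voom, by -0.117 without the filter by 0.231 without the libraries with much Gm10800 and by 0.136 without untreated Il12rb2fl/fl replicate 2. In K14Cre/+ Il12rb2fl/fl it moved by 0.107 under limma voom, 0.181 without the libraries with much Gm10800 and 0.101 without untreated replicate 2. In Il12rb2fl/fl it moved by 0.165 without those libraries, 0.166 without untreated replicate 2 and -0.135 without Aldara replicate 3. Counts under 100 in all for 28 of the 56 genes limit what the Lce and filaggrin-type genes can show.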
